A study of Mus musculus with 4 samples.

Results

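The accessible chromatin at 9 mouse genes of the NF-kB system was described: the subunit genes Nfkb1, Nfkb2, Rel, Rela and Relb, the IkB family genes Nfkbia, Nfkbiz and Nfkbid, and Tnfaip3, which encodes the ubiquitin-editing enzyme A20. A region belonged to one of them when it was the nearest protein-coding gene, measured to the gene's span. By this rule 134 of the 91266 accessible regions in the series were members. The data are ATAC-seq, in which a transposase inserts adapters into open chromatin, of natural killer (NK) cells from the spleen of wild-type C57BL/6 mice. All cells were cultured for 72 h with IL-15 (interleukin-15), the cytokine that keeps NK cells alive and dividing. In 2 samples the dose was high (HD) and in 2 it was low (LD); the labels used here give neither the concentrations nor the age or number of the animals. There was no group without IL-15.

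The deposited tables hold positions and the authors' own lists of regions up and down between the doses, with 0 columns of values per sample. No replicate spread, fold change or p-value can therefore be given, sequencing depth is unknown, and each count below is a description without a test. The dose that served as the reference is not given in the sources used here, so up and down are the deposited names and are assigned to no dose. Accessibility at the labelled cell type's genes was checked: 10 of 10 NK cell marker genes had a region in the gene or within 1 kb, 48 regions in all. Of the marker genes of other cells, 5 of 6 for T cells (7 regions), 2 of 3 for B cells (7 regions), 3 of 4 for myeloid cells (10 regions) and 2 of 4 for erythroid cells (2 regions) had a region as well. Cd8a, Ms4a1, Lyz2, Hba-a1 and Alas2 had none. An accessible region does not show that a gene is expressed, and the share of other cells in the cultures was not tested.

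NF-kB transcription factors are dimers of Rel-family subunits that bind short GC-flanked sites called kappa-B sites. In resting cells the dimers are held in the cytoplasm by IkB proteins, and signals from cytokine, antigen or innate receptors lead to the destruction of the inhibitor and release of the dimer. Several genes of the system are textbook NF-kB targets themselves, among them Nfkbia and Tnfaip3, whose products switch the signal off. In lymphocytes the pathway is known for its part in activation, survival and cytokine production.

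The sequences upstream of the start sites are shown first, because a kappa-B motif can be looked for there and because accessible regions overlapped 10 of the 11 windows given. RefSeq promoter windows of assembly GRCm38.p6, from 250 bases before to 50 bases after a start, were given for 6 members: Nfkb2 and Nfkbid with 3 windows each, Tnfaip3 with 2, and Rel, Rela and Nfkbia with 1 each. The entries for Nfkb1, Relb and Nfkbiz are missing. The kappa-B motif, searched on both strands, was 3 G, a purine, any base, A or T, 2 pyrimidines and 2 C. It occurred in 7 of the 11 windows (63.6%), belonging to 5 of the 6 genes, against 1480 of all 32851 windows (4.51%) and 1388 of all 27025 genes with a window (5.14%). Of the 7, 2 are overlapping Nfkb2 windows that share 1 match, which is the only one in the later window. Among windows of any gene that overlapped an accessible region, 729 of 13666 held it (5.33%), belonging to 687 of 11726 genes (5.86%). The exception in overlap was the window of the second, inner start of Tnfaip3, which overlapped no region. The window of Rela and the remaining windows of Nfkbid and Tnfaip3 did not hold these letters. A match is a description of the sequence and not evidence of binding.

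The 250 bases before the start are printed for the 3 genes whose window with a match begins at the outer end of the gene. They are written 5′ to 3′ on the gene's strand, which is the minus strand for all 3, with the motif matches in capitals. All 3 lie within regions that were in neither list, and the regions themselves are described with their genes below.
Nfkbia, chr12:55492648-55492897: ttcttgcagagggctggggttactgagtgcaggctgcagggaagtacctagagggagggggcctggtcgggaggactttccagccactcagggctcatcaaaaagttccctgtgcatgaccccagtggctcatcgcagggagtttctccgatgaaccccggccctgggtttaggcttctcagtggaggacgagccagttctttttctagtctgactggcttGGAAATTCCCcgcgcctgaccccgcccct
Rel, chr11:23770970-23771219: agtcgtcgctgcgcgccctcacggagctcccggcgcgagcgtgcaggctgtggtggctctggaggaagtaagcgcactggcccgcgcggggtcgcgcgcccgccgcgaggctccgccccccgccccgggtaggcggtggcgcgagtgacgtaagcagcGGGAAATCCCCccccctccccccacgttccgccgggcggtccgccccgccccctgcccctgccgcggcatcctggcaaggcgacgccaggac
Tnfaip3, chr10:19015411-19015660: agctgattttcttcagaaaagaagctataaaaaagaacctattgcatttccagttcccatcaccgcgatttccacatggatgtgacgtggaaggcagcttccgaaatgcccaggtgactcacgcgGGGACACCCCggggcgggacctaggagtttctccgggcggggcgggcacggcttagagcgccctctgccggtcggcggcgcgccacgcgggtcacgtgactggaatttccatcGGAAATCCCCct

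Nfkb2 and Nfkbid have several starts inside the gene, so only 30 bases around each match are printed for them, to show how alike the matches are. All are on the plus strand, with the match in capitals.
Nfkb2, chr19:46304689-46304718: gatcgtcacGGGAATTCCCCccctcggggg
Nfkb2, chr19:46304716-46304745: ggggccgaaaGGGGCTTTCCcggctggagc
Nfkb2, chr19:46305449-46305478: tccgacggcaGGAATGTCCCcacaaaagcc
Nfkb2, chr19:46305695-46305724: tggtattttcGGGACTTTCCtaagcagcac
Nfkbid, chr7:30422170-30422199: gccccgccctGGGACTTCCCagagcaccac
Nfkbid, chr7:30422215-30422244: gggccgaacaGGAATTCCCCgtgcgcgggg

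Counted once each, the windows held 12 different matches, and all 12 lay inside an accessible region that neither list contained. The matches of each of the 5 genes lay in a single region, and these regions were over 1000 bp wide except that of Nfkbid. Only 5.61% of all regions were listed, and of those over 1000 bp 0.669% were up and 0.955% down. Unlisted regions are therefore what the background gives here. In Rel, and in the first of the printed Nfkb2 stretches, 2 matches overlap and the capitals run over both. Relative to the start site for which its window was given, the match of Nfkbia began at -29. The matches of Tnfaip3 began at -125 and -12, those of Rel at -92 and -91, and those of Nfkbid at -226 and -181. In Nfkb2 they began at -39, -38 and -11 in the first window and at -236 and 10, the latter after the start, in the second. The last of these is the shared match and began at -225 in the third window.

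Of the 134 regions at the 9 genes, 2 were in the up list and 7 in the down list, and 125 were in neither. The share up was 1.49%, against 4.21% of all regions (3845 of 91266), and the share down was 5.22%, against 1.40% of all regions (1275 of 91266). Up regions thus made up 22.2% of the listed regions at these genes and 75.1% of all listed regions. The 9 listed regions belonged to 4 genes: Nfkb1 had 1 up and 1 down region, Nfkbiz 1 up and 2 down, Nfkbia 1 down and Tnfaip3 3 down. Nfkb2, Rel, Rela, Relb and Nfkbid, with 16 regions between them, had none in either list.

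**Figure D1:**
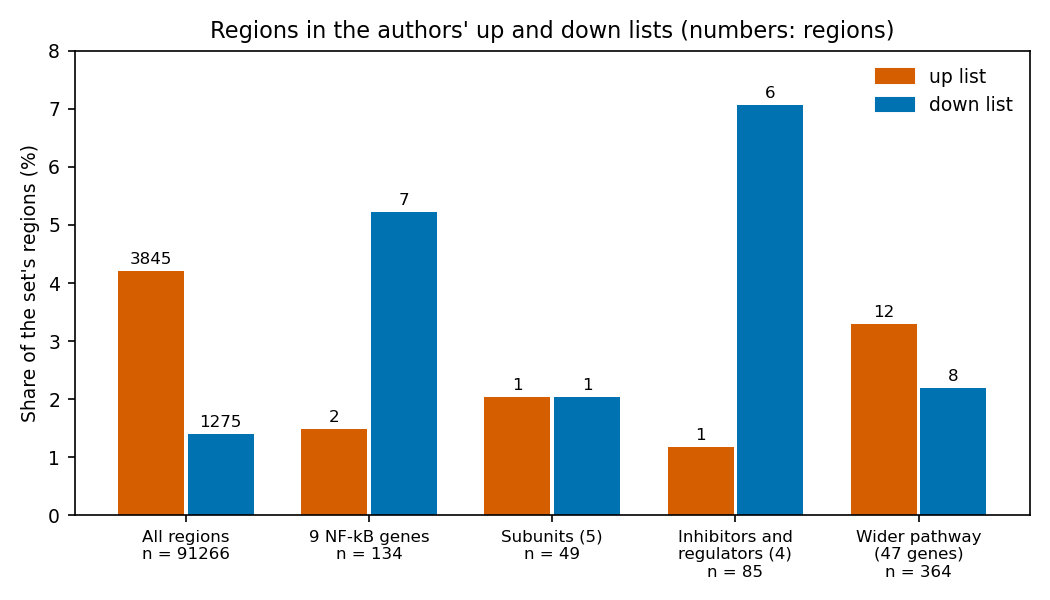
Share of regions in the authors' up list (orange) and down list (blue), in percent of each set's regions, with the number of regions above each bar. The 9 NF-kB genes show 1.49% up and 5.22% down, the reverse order of all regions (4.21% and 1.40%). At the 4 inhibitors and regulators, which hold 85 of the 134 regions, lie 6 of the 7 down regions.

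The number of regions was unequal among the genes. Tnfaip3 had 38 regions, Nfkb1 36 and Nfkbiz 34, whereas Nfkbia had 10, Rel 7, Nfkbid 3 and Nfkb2, Rela and Relb 2 each. The median over the 16387 genes with a region was 3. The rule passes over non-coding genes, and with genes of any biotype Nfkb1 kept 34 of its 36 regions, Tnfaip3 16 of 38 and Nfkbiz 9 of 34, while the 9 genes together kept 80 of 134. Only 183 genes had 34 or more regions, and of these 61.2% had a down region and 66.1% an up region, with 2.92% of their regions down and 3.37% up. By the protein-coding rule, Tnfaip3, Nfkb1 and Nfkbiz together had 6 of 108 regions down (5.56%) and 2 up (1.85%). Genes with at most 10 regions had a down region in 2.54% of cases and any listed region in 13.7%, so that the absence of listed regions at 5 members with few regions is what most such genes show.

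**Figure D2:**
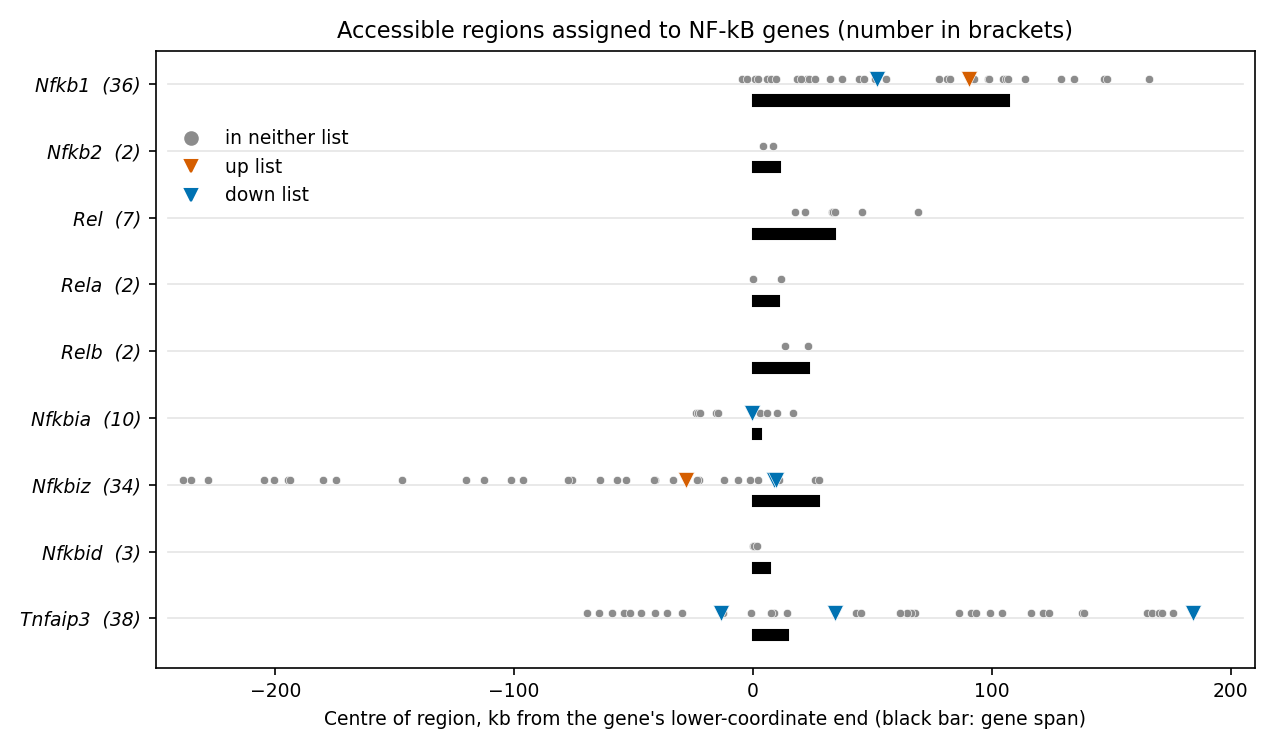
Centre of each of the 134 regions in kb from the lower-coordinate end of its gene, 1 row per gene, with the gene span as a black bar and listed regions as triangles. Most regions of Tnfaip3 and Nfkbiz lie outside the gene, most of those of Nfkb1 inside it, and no triangle stands over an annotated start of the 6 genes for which starts were given.

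Nfkb1 encodes p105, the precursor of the p50 subunit, and lies at chromosome 3, 135584655 to 135691969, a span of 107 kb. Of its 36 regions 28 overlapped the gene and the other 8 lay up to 58.3 kb from it. The down region, 734 bp at 135636047 to 135636780, was inside the gene and 51.4 kb from its nearer end, close to the middle. The up region, 358 bp at 135674668 to 135675025, was also inside, 16.9 kb from the higher-coordinate end. The 2 were thus in opposite lists within 1 gene. Neighbouring unlisted regions were close in both cases, 152 bp below the down region and 512 bp above the up region. Over the higher end of the gene lay an unlisted region of 1457 bp at 135690605 to 135692061, wider than 98.0% of all regions.

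The other subunit genes had only unlisted regions. Rela, which encodes p65, the main activating subunit of the canonical pathway, lies at chromosome 19, 5637442 to 5648134. Its 2 regions measured 1430 bp, over the start, and 1359 bp, 427 bp past the other end. Relb, which encodes the activating partner of p52 in the non-canonical pathway, lies at chromosome 7, 19606217 to 19629438. One of its regions, of 1337 bp at 19628345 to 19629681, covered the higher end, and the other, of 895 bp, lay within the gene.

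Nfkb2 encodes p100, the precursor of p52, and lies at chromosome 19, 46300994 to 46312400. A single region of 1952 bp at 46304164 to 46306115 covered all 3 of its starts and all of the printed kappa-B matches, and was the widest of the 134. The second region of Nfkb2 measured 240 bp. Rel encodes c-Rel, a subunit most abundant in lymphoid cells, and lies at chromosome 11, 23736847 to 23770969. Of its 7 regions 5 overlapped the gene, and the farthest was 34.8 kb away. The region over its start measured 1208 bp at 23770543 to 23771750. Taking the 5 subunit genes as a group, 1 of 49 regions was up and 1 was down (2.04% each), against 4.21% and 1.40% of all regions. Both were at Nfkb1, which had 36 of the 49.

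The 4 inhibitor and regulator genes held 85 regions, of which 1 was up (1.18%) and 6 were down (7.06%). Among all regions 4.21% were up and 1.40% down, and at genes with 34 or more regions 3.37% and 2.92%. Tnfaip3 had 38 of the 85 regions and 3 of the 6 down, and Nfkbiz 34 and 2. The group therefore mostly describes these genes, and its difference from the subunit genes was not tested. Nfkbia encodes IkB-alpha, the inhibitor that is degraded on signalling and made again as a target of NF-kB. It is a short gene of 3.24 kb at chromosome 12, 55489409 to 55492647, and 9 of its 10 regions lay outside it. The region over its start, 1314 bp at 55491647 to 55492960, was unlisted. The down region, 741 bp at 55488633 to 55489373, stood 36 bp past the gene's opposite end and 3.27 kb from the start, with 2273 bp between it and the start region. Of all regions within 1 kb of a protein-coding gene end, 0.616% were down and 1.32% up, the lowest shares of any class of position, and this was the only listed one among the 15 such regions of the 9 genes.

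Tnfaip3, at chromosome 10, 19000910 to 19015410, is read on the minus strand. Of its 38 regions 3 overlapped the gene, 12 lay past its downstream end and 23 upstream of its start, out to 169 kb. The first down region, 341 bp at 18987309 to 18987649, was 13.3 kb past the downstream end. The second, 849 bp at 19034955 to 19035803, was 19.5 kb upstream and was the widest listed region of the 9 genes. The third, 531 bp at 19184831 to 19185361, was the farthest of all Tnfaip3 regions at 169 kb. Its assignment is the least secure, since Olig3 lay 171 kb away on the other side. The 2 nearer ones had Perp as the next gene, at 130 kb and 178 kb. The region over the start of Tnfaip3, 1541 bp at 19014329 to 19015869 with 2 kappa-B matches, was unlisted.

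Nfkbiz encodes IkB-zeta, a nuclear member of the IkB family that acts with NF-kB on secondary response genes, and lies at chromosome 16, 55811375 to 55838954. Of its 34 regions 6 overlapped the gene and 28 lay below its lower end, as far as 238 kb. The 2 down regions were inside the gene and adjacent, 302 bp at 55820178 to 55820479 and 527 bp at 55820696 to 55821222, with a gap of 216 bp. An unlisted region of 1212 bp followed 266 bp above them. The up region, 238 bp at 55783311 to 55783548, was 27.8 kb below the gene and was the narrowest listed region of the 9 genes. The region over the higher end of Nfkbiz, of 1125 bp at 55838436 to 55839560, was unlisted.

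Nfkbid encodes IkB-NS, another nuclear IkB protein, and lies at chromosome 7, 30421731 to 30428749. Each of its 3 starts was covered by a region of its own, of 579 bp, 401 bp and 336 bp, and none of the 3 was listed. Its kappa-B matches were in the window of the second start, within the 401 bp region. The regions over a start or a gene end of the other 8 genes described above measured 1125 bp or more, whereas these lay within the quartiles of all regions.

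Widths were compared next, because wide and narrow regions entered the lists at different rates. The 134 regions had a median width of 476 bp, with quartiles of 283 and 705 bp, against a median of 400 bp and quartiles of 252 and 653 bp for all regions. The 7 down regions ranged from 302 to 849 bp with a median of 531 bp, close to the median of 537 bp of all down regions. The 2 up regions measured 238 and 358 bp, below the median of 453 bp of all up regions. Of the 134 regions, 21 (15.7%) were over 1000 bp wide and 0 of these were listed. Of all 8374 regions over 1000 bp, 0.669% were up and 0.955% down, so that none of 21 is close to the background.

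**Figure D3:**
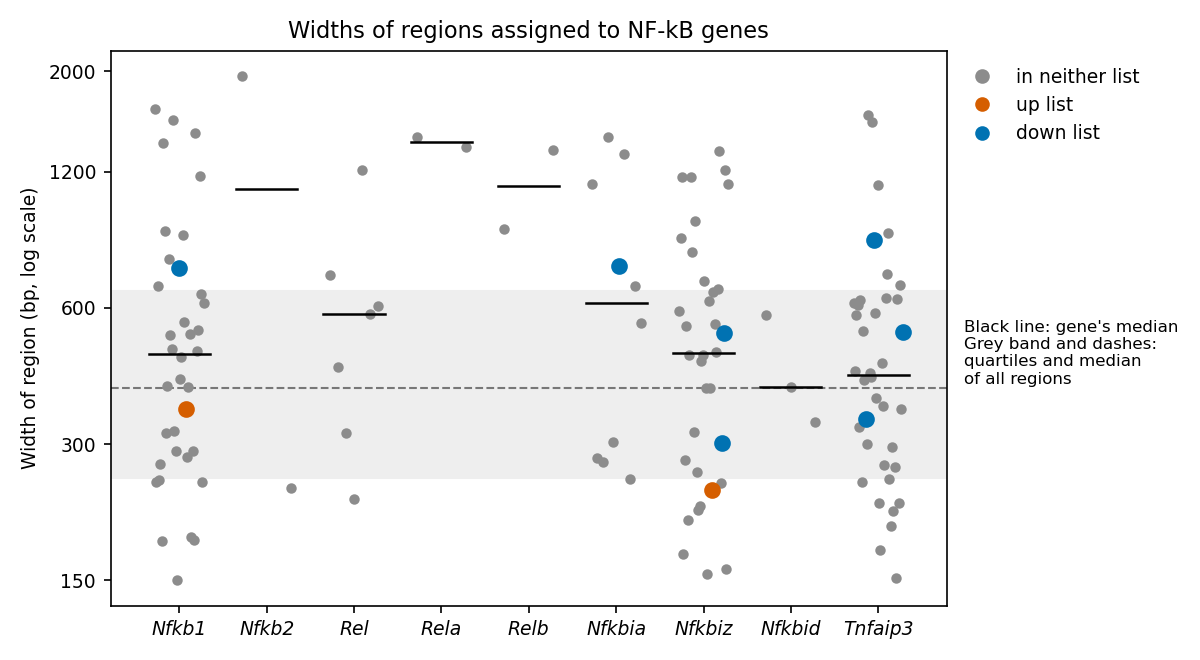
Width in bp (log scale) of each region by gene, ordered within a gene by position, with the gene's median as a black line and the quartiles and median of all regions as a grey band and dashes. The 9 listed regions (coloured) lie between 238 and 849 bp, and the 21 regions over 1000 bp are in neither list.

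Distant regions belonged to few of the 9 genes. Over 50 kb outside the gene lay 43 of the 134 (32.1%), against 11.0% of all regions, but 23 of the 43 were at Tnfaip3, 19 at Nfkbiz and 1 at Nfkb1. By contrast, 40 (29.9%) lay inside the gene over 1 kb from its ends, against 46.4%. The inside class held 1 up and 3 down regions, the class from 10 to 50 kb (30 regions) 1 up and 2 down, and the class over 50 kb 1 down. The 6 regions from 1 to 10 kb outside held none. Over all regions, 4.16% were up and 1.63% down in the inside class, 5.92% and 1.32% from 10 to 50 kb, 6.16% and 2.16% over 50 kb, and 4.69% and 0.950% from 1 to 10 kb.

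Within 100 kb of the 9 genes, 6 further listed regions were assigned to other genes. Regions of other genes numbered 14 around Nfkb1, 12 around Nfkb2, 11 around Rel, 26 around Rela and 24 around Relb. Around Nfkbia and Nfkbiz there were 11 each, around Nfkbid 27 and around Tnfaip3 6. Among all regions 4.21% were up and 1.40% down, and no difference from these shares was tested. Manba, the lysosomal beta-mannosidase gene beside Nfkb1, had 3 up regions, at 28.1, 85.3 and 86.0 kb from Nfkb1, all inside Manba. Mfsd13a had 1 up region 56.8 kb from Nfkb2. Pus10 had 1 down region of 260 bp, 18.2 kb from Rel, and Tyrobp, which encodes the NK cell signalling adaptor DAP12, had 1 down region of 680 bp at 30402199 to 30402878, 18.9 kb from Nfkbid. The windows of Rela, Relb, Nfkbia, Nfkbiz and Tnfaip3 held no listed region of another gene.

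The wider pathway was described through 47 other genes: the kinases with their binding partners, the adaptors and ubiquitin ligases, and further inhibitors and regulators. Of these, 45 were nearest to at least 1 region, 364 in all, with 12 up (3.30%) and 8 down (2.20%). An up region was found at 7 genes and a down region at 5, none having both, and 35 genes had neither. Among all 16387 genes with a region, 16.1% had an up region and 5.39% a down region. Ripk1 and Rnf31 were nearest to no region. By this assignment the list had more up than down regions, as it did with every gene within 50 kb (19 up and 9 down). The order turned under the other 3 assignments tried: 4 up and 6 down within 10 kb of the gene, 2 and 5 inside the gene, and 4 and 6 with genes of any biotype. Its difference from the 9 genes was not tested.

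Among inhibitors and other regulators (18 genes, 160 regions), 7 regions were up (4.38%) and 4 down (2.50%), against 4.21% and 1.40% of all regions. Cyld, a deubiquitinase that dampens the signal, had 3 of its 9 regions up, all outside the gene, 19.3 to 40.8 kb away. Zc3h12a, which encodes the RNase Regnase-1, had 3 of 28 up, 84.0 to 114 kb away. Peli1, an E3 ubiquitin ligase gene, had 3 of 25 down, 1 of them inside the gene and the farthest at 14.0 kb. It was counted here and not with the adaptors and ligases, and held 3 of the 4 down regions of this class. The down shares of both classes depend on that placement. Otud7b had 1 of 8 up, inside the gene, and Tnip3, an A20-binding protein gene, had 1 of 22 down, also inside. The up region of Otud7b was the only one of the class inside its gene. The up share of the class thus rests mostly on the distant regions given to Cyld and Zc3h12a. Nfkbib, Nfkbie and Bcl3, the other IkB family genes of the list, had 1, 2 and 7 regions, none listed.

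Among adaptors and ligases (19 genes, 110 regions), 2 regions were up (1.82%) and 3 down (2.73%), against the same 4.21% and 1.40%. Traf1, an NF-kB target gene and adaptor of TNF receptors, had 2 of 10 regions down, both inside the gene, of 488 and 377 bp. Birc3, which encodes cIAP2, had 1 of 7 down, inside the gene. Malt1, which encodes a paracaspase that acts downstream of antigen receptors, had 1 of 15 up, 7.32 kb from the gene. Irak2, a kinase-family adaptor of Toll-like and IL-1 receptors, had 1 of 17 up, inside the gene. Among kinases and their partners (10 genes, 94 regions), 3 regions were up (3.19%) and 1 down (1.06%), both near the shares of all regions. Tbk1 had 2 of 11 up, Tab2 1 of 23 up and Map3k7, which encodes TAK1, 1 of 28 down at 76.0 kb. The IkB kinase genes Chuk, Ikbkb and Ikbkg had 1, 9 and 1 regions, none listed.

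**Figure D4:**
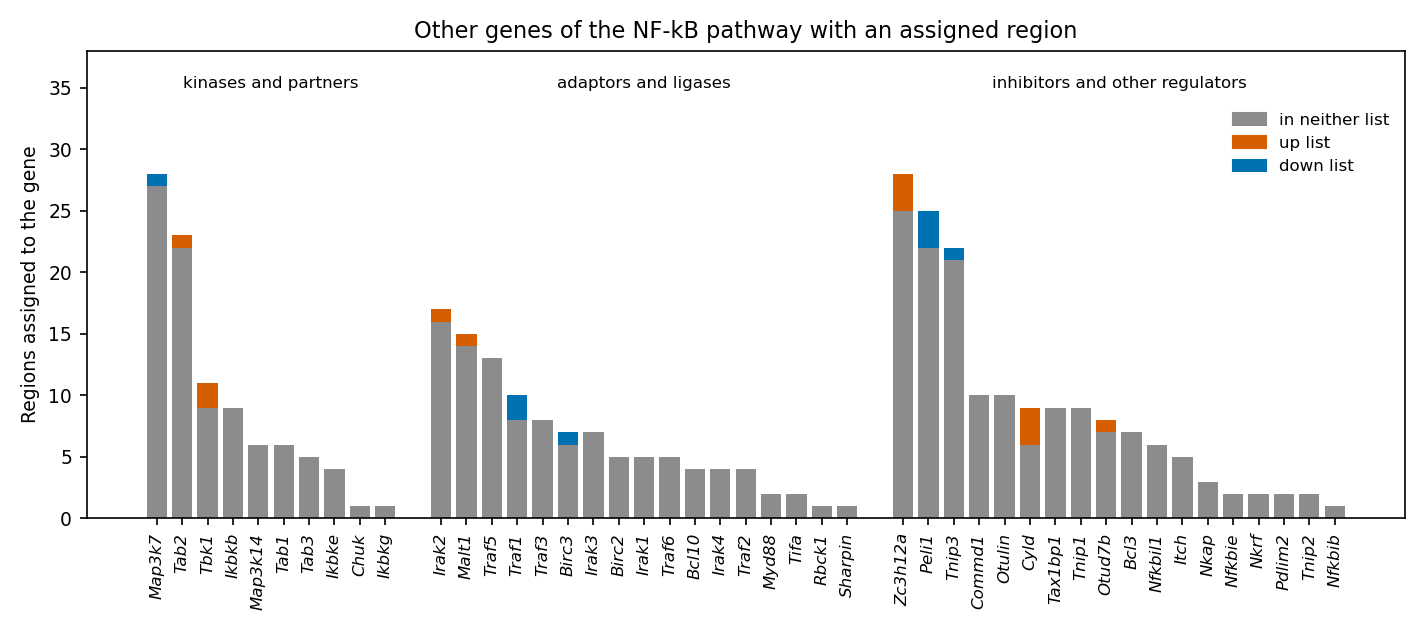
Number of regions assigned to each of the 45 other pathway genes with a region, by role, with up regions in orange and down regions in blue on top of unlisted regions in grey. Up regions appear at 7 genes and down regions at 5, with no gene in both, and the IkB kinase genes Chuk, Ikbkb and Ikbkg carry neither.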

How the data were processed

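The 3 deposited tables belong to the whole series of 4 samples (2 high dose, 2 low dose). They give, as deposited by the authors, the positions and widths of accessible regions, and lists of regions up and down. Per the submitters' processing notes the build was mm10 (GRCm38), and BWA, ArchR, MACS2 and HOMER 4.11.1 were used, with no role stated. Not given in the sources used here are the pooling of samples for peak finding, the test between the doses with its threshold, and the reference dose.

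Starts in the full table were 0-based and were raised by 1. Every listed region then matched a region of that table exactly. Each region was given to the nearest of 21900 RefSeq protein-coding genes (GRCm38.p6) by distance to the gene's span, and a tie was settled by the nearer gene end. All 9 symbols matched. No exon or intron annotation was used. Starts and strand came from the RefSeq promoter windows. The members, gene lists and motif were chosen with earlier results of these data known. All 9 members and each of their listed regions are named, and of the wider list up to 12 genes by number of listed regions, then symbol. The genes without a listed region and the neighbouring genes were named after their values were seen. Assignment and motif search were tested on simulated data. Python 3.11.15, numpy 2.4.6 and pandas 2.3.3 were used. A gene of the wider list and a marker gene are not reported here and were left out of all counts of those lists. No test was run, because there are no values per sample. Alternatives changed the assignment, the widths, the members and the motif.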

Additional observations from a re-analysis of the deposited data

How the results depend on the processing

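No paired analysis was possible because the tables hold no values per sample, although the doses share replicate numbers. For the same reason leaving out replicates, other normalizations and count filters were not run. Assignment to the nearest start site was not run, since starts were at hand for 6 of the 9 genes. Of 40 alternatives over 6 results, 25 stayed within 1.5 times the reported count and 15 moved.

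The 2 up regions became 1 within 10 kb of the gene, inside the gene, with genes of any biotype, without Nfkb1 or without Nfkbiz (the last 2 choices made after seeing the data), and 0 above the median width of 400 bp. The 7 down regions became 4 within 10 kb, 3 inside the gene, 2 up to the median width and 4 without Tnfaip3. The number of genes with a listed region, 4, became 2 inside the gene. With every gene within 50 kb it became 6, which is just within 1.5 times, with 3 up and 8 down among 159 regions. Rel and Nfkbid then each had a down region, those given to Pus10 and Tyrobp by the main rule. Every one of these settings except that within 50 kb keeps fewer regions. The share of down regions exceeded that of all regions in each, from 3.77% of regions up to the median width (0.732% of all such regions) to 7.50% with genes of any biotype. Only for the width settings were all regions restricted in the same way. The others are set against the unrestricted 1.40% down and 4.21% up. Most settings draw on overlapping sets of regions and are not independent of each other. The up share lay below that of all regions except up to the median width, where it was 3.77% against 3.12%. In the wider pathway, 7 genes with an up region became 4 within 10 kb, 13 within 50 kb, 2 inside the gene and 4 with genes of any biotype. With genes of any biotype the farthest Tnfaip3 region fell within Gm20139 and the Nfkbiz up region was nearest to Gm26369. All 6 genes with promoter windows held a looser form of the motif (3 G, any 5 bases, 2 C), as did 53.5% of all genes with a window and 70.0% of genes with a window overlapping a region.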
